A study of Mus musculus with 454 samples.

Results

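Sprr1a-positive Port neurons were single cells picked from the mouse nodose ganglion, given the target code Port by the authors, in which at least 10 reads of Sprr1a were counted. There were 38 of them in 7 mice, and they were set against the 84 Sprr1a-negative Port neurons, with fewer than 10 Sprr1a reads, in 9 mice. Together they made up 27.2% of the picked cells that had at least 2000 genes above 0, and the positive neurons were 31.1% of Port neurons. All mice were wild type C57BL/6 aged 8 to 12 weeks, no treatment is given in the labels, and the header of the read table names each cell's mouse and target. The sources used here do not expand Port or the other codes, GastG, GastP, IntP, IntM, IntD, IntL and na. Cells were dissociated with enzymes, made into cDNA by Smart-seq2 and tagged with Nextera, so each value comes from reads without molecular identifiers. A separate droplet library (10x Genomics) came from whole ganglia of wild type C57BL/6 mice aged 6 weeks.

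The nodose ganglion holds the cell bodies of vagal sensory neurons, whose axons run to the viscera and to the brainstem. When the axon of a peripheral sensory neuron is cut or crushed, its cell body switches on a programme of regeneration-associated genes: transcription factors such as ATF3, JUN and SOX11 rise, growth cone proteins and peptides such as galanin follow, and channels and transmitter receptors of the resting neuron decline. SPRR1A, a small proline-rich protein first known from the cornified envelope of skin, is part of that programme and is nearly absent from uninjured sensory neurons. That is background from work on nerve injury, and the labels of these cells record no injury.

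Sprr1a reads chose the members, so the values that follow describe the split and are not tested. The 38 Sprr1a-positive neurons held 11 to 15317 Sprr1a reads, with a median of 3782.5 reads or 2005 CPM (reads scaled to the total of each cell), and the 84 Sprr1a-negative neurons held 0 to 9 reads, with a median of 0. Few cells lay near the threshold. The nearest cells above it held 11 reads (Retro21), 39 reads (Retro22) and 60 reads (Retro21), and the nearest below it held 9 reads (Retro46) and 7 reads (Retro21). The kinds were spread unevenly over mice: Retro22 held 17 positive and 2 negative neurons, Retro21 held 9 and 7, Retro27 held 5 and 2, Retro53 held 4 and 11, Retro28 held 1 and 1, Retro51 held 1 and 14, and Retro52 held 1 and 17. Retro46 and Retro47 held 0 positive neurons beside 13 and 17 negative ones.

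**Figure D1:**
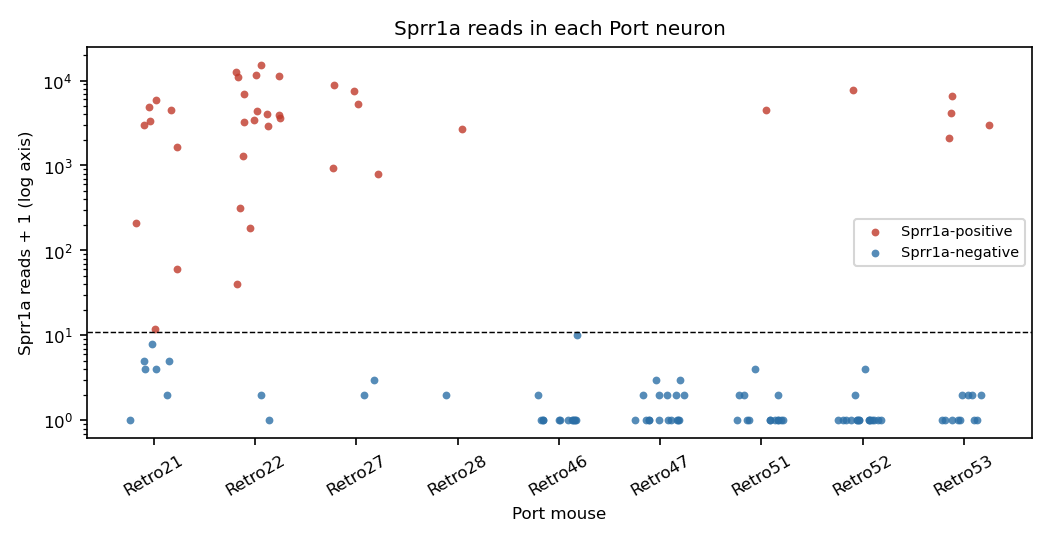
Sprr1a reads plus 1 in each Port neuron (log axis), by mouse, with Sprr1a-positive neurons in red and Sprr1a-negative neurons in blue. The dashed line marks 10 reads; positive neurons are most frequent in Retro22, Retro21 and Retro27, and Retro46 and Retro47 have 0.

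Sprr1a (ENSMUSG00000050359) lies on the minus strand of chromosome 3, at 92483952 to 92485895 in GRCm38, the assembly of mm10. Its promoter is shown because AP-1, the dimer of JUN and FOS or ATF family proteins, is a known activator of injury genes. The promoters of Ecel1, Sdc1 and Atf3 are shown beside it because these genes were high in the same cells. Each RefSeq window (GRCm38.p6) runs 5′ to 3′ on the gene's own strand and lies mostly upstream of the start site. The windows are chr3:92485832-92486131 (minus) for Sprr1a, chr1:87156307-87156606 (minus) for Ecel1, chr12:8771146-8771445 (plus) for Sdc1 and chr1:191183284-191183583 (minus) for Atf3. Capitals mark the AP-1 motif TGANTCA, which reads the same on both strands.
Sprr1a: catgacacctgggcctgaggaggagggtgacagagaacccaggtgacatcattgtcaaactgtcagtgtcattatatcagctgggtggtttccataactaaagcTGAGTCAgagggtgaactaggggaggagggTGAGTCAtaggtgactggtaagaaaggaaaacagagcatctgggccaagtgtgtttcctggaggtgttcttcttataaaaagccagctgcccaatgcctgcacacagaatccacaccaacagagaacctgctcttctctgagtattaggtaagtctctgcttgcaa
Ecel1: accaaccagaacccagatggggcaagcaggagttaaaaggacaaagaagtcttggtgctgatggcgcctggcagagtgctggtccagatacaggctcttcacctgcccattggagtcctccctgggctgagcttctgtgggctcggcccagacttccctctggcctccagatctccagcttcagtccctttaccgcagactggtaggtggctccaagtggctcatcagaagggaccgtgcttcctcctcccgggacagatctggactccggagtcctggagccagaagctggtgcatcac
Sdc1: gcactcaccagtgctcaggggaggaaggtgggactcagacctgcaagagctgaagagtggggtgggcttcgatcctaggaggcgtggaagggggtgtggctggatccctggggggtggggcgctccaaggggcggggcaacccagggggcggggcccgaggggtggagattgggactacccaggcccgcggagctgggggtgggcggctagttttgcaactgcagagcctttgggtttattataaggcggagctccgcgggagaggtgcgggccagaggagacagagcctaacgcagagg
Atf3: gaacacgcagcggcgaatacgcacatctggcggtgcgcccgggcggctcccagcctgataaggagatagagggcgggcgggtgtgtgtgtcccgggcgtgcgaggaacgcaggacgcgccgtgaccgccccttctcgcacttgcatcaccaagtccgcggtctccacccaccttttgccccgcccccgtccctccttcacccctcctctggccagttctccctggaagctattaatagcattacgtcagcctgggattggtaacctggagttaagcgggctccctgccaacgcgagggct
The Sprr1a window held 2 AP-1 motifs, both with the letters TGAGTCA, and the windows of Ecel1, Sdc1 and Atf3 held 0. The cAMP response motif TGACGTCA, which does not overlap the AP-1 motif in these windows, was in 0 of these 4. The Atf3 window lies inside the GENCODE gene, at 191170296 to 191218039, so its counts concern an internal start only. Over all 27025 genes with a RefSeq window, whether or not they are in the read table, 7.933% held TGANTCA and 1.876% held TGACGTCA. At least 2 copies of TGANTCA were in 0.44% of these windows and in 0.133% of those of genes tested by limma. Among genes called higher in Sprr1a-positive Port neurons by limma, 92 of 1385 with a window held TGANTCA (6.643%), among those called lower 67 of 1513 (4.428%), and among the 9750 genes tested with a window 4.646% held it. For TGACGTCA the shares were 3.682% of genes called higher, 3.833% of those called lower and 3.426% of those tested. Of the 12 genes with the largest positive differences, 8 had a window and 0 of these held either motif. Letters in a window describe the sequence and do not show that a factor binds.

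A further 4 genes were taken as markers of these cells with earlier results of these data known, so their presence is no independent evidence. They are Ecel1, a membrane endopeptidase also called DINE that is induced in damaged neurons; Sdc1, the heparan sulphate proteoglycan syndecan-1; Atf3, a stress-induced transcription factor; and Gpr151, an orphan receptor induced in injured sensory neurons. Of the 38 Sprr1a-positive neurons, 34 had at least 10 reads of each of the 4, while of the 84 Sprr1a-negative neurons 0 had all 4, which allows a share of up to 3.57%. Among the negative neurons 16 had 10 reads of 0 of the 4, 47 of 1, 19 of 2 and 2 of 3. The 4 positive neurons without the full set had 1 or 2 of the markers (2 neurons each), and they were the 3 nearest the threshold, with 11, 39 and 60 Sprr1a reads, and the fifth nearest, from Retro21, which had 1 read of Ecel1 and 5 of Sdc1. The fourth nearest, from Retro22, had 1017 reads of Sdc1 and the full set. The 2 negative neurons with 3 markers came from Retro21, with 11 reads of Sdc1, 834 of Atf3 and 16 of Gpr151, and from Retro47, with 87 reads of Sdc1 and 1682 of Atf3.

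Both kinds were neurons by the pan-neuronal and nodose markers. Slc17a6, Snap25, Uchl1 and Tubb3 reached 10 reads in 38 of 38 positive and 84 of 84 negative neurons. P2rx2 reached it in 37 of 38 positive and 84 of 84 negative neurons. Depth was 1099815 to 4192750 reads in Sprr1a-positive neurons (median 1934423, with 11504 genes above 0) and 565844 to 3860680 reads in Sprr1a-negative ones (median 1795626, with 11331 genes). Summed over their lists, markers of satellite glia came to 905.5 to 3087 CPM in positive mouse means and 369.1 to 5139 CPM in negative ones, and 0 of 8 passed an adjusted p of 0.05 in limma. Macrophage markers came to 3.20 to 9.27 CPM in positive means and 0 to 1.90 CPM in negative ones, with C1qa, C1qc and Tyrobp at 0 in both. Cx3cr1, with too few reads to test, had mouse means of log2(CPM + 1) of 0.78 to 1.17 in positive neurons and 0 in negative ones. It reached 10 reads in 6 of 38 positive and 0 of 84 negative neurons. C1qb, Lyz2 and Ptprc reached at most 0.42, 0.18 and 0 in positive means and 0.64, 0.23 and 0.05 in negative ones. Csf1r was the only macrophage marker with enough reads to test and was higher in positive neurons by 0.93 ± 0.27 on the log2 scale (adjusted p = 0.0147). Dcn and Pdgfra, fibroblast markers, were higher by 1.14 and 0.88, and the myelin gene Ncmap and the globin gene Hba-a2 were lower (differences of -0.98 and -0.93). Each of these 5 calls was lost when certain single mice were left out. Without Retro22 the adjusted p was 0.0807 for Csf1r, 0.0547 for Dcn, 0.0572 for Pdgfra, 0.0647 for Ncmap and 0.196 for Hba-a2. Without Retro27 it was 0.115 for Dcn, 0.0605 for Pdgfra, 0.0522 for Ncmap and 0.12 for Hba-a2, and the differences of Dcn and Pdgfra were 0.72 and 0.43. Dcn also did not pass without Retro21 (0.0545), Csf1r without Retro53 (0.0516), Ncmap without Retro53 (0.0686), and Hba-a2 without Retro46, Retro51 or Retro53 (0.0707, 0.0654 and 0.0629). Summed sympathetic markers came to 47.9 to 337.9 CPM in positive means and 180.1 to 612.0 CPM in negative ones. The part of other cells' RNA in the results was not tested.

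For the comparison, log2(CPM + 1) was averaged over the cells of each kind in each mouse. A mouse entered with at least 2 cells of a kind, which gave 4 positive profiles (Retro21, Retro22, Retro27 and Retro53, in that order wherever 4 values are given) and 8 negative ones (these 4 mice with Retro46, Retro47, Retro51 and Retro52). Differences are positive minus negative on this log2 scale, with SE, and p-values come from limma with Benjamini-Hochberg adjustment over 12935 genes, Sprr1a left out. Higher in Sprr1a-positive neurons were 1859 genes (14.4%) and lower were 1983 (15.3%), together 29.7% of genes tested, around a median difference of -0.03 over all genes. Profiles of the 2 kinds did not overlap for 1211 genes that were higher in every positive profile (9.36%) and 1188 that were lower in every one (9.18%). With the split placed at 1 read of Sprr1a, 1 gene was called higher and 0 lower. The 4 positive profiles limit the precision, and genes near 0 in negative neurons entered the test through the positive cells, so their differences depend on the pseudocount. Such genes include Ecel1, Sdc1, Fgf3, Inhbb, Tgif1, Flnc, Nts, Il6, Hrk, Gfra3, Mc4r, Csf1r and Pdgfra. Their p-values are no separate support, and they are also counted in the lists below. Ucn and Slc7a3, at most 0.24 and 0.40 in negative profiles, are read in the same way.

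The largest positive differences were those of Ecel1, Sdc1 and Gpr151, which were taken as markers with earlier results known. Ecel1 averaged 5.93, 9.15, 9.79 and 10.09 in the positive profiles, against a lowest value of 0, a median of 0.05 and a highest of 0.63 in the 8 negative profiles. The lowest positive profile, that of Retro21, lay far above the highest negative one. The difference was 8.60 ± 0.56 (adjusted p = 1.2e-07), and 34 of 38 positive neurons and 0 of 84 negative neurons (up to 3.57% allowed) held 10 reads. Sdc1 averaged 6.25, 8.93, 9.12 and 9.20 in positive profiles, against 0 to 0.82 with a median of 0.37 in negative ones (difference 8.00 ± 0.45, adjusted p = 4.21e-08). Gpr151 averaged 6.57, 8.38, 8.58 and 8.98, against 0.24 to 3.08 with a median of 0.93 (7.0 ± 0.50, adjusted p = 2.05e-07). For both genes Retro21 had the lowest positive mean and the kinds did not overlap. Among the 12 highest genes were also Cckbr, a receptor for cholecystokinin and gastrin (5.45 ± 0.61), Sema6a, a membrane semaphorin (5.71 ± 0.44), Serpinb1a, an intracellular protease inhibitor (5.10 ± 0.38), and Wfdc3, a gene of the whey acidic protein family (4.85 ± 0.51).

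**Figure D2:**
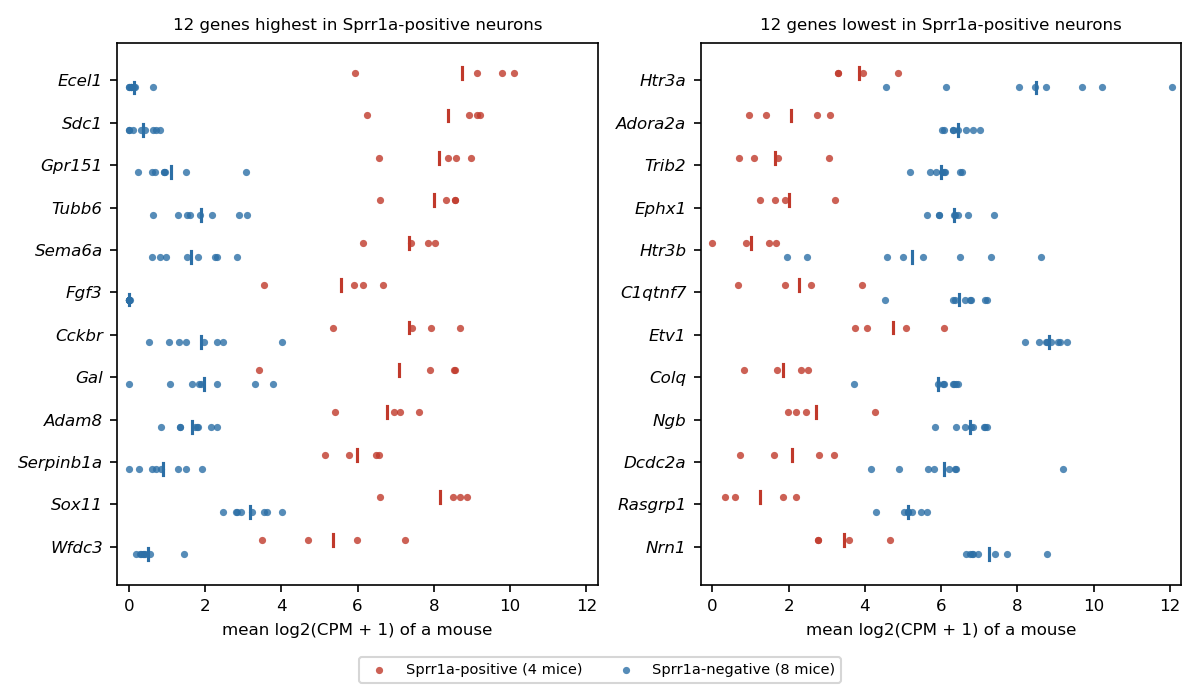
Mean log2(CPM + 1) of each mouse for the 12 genes with the largest positive differences (left) and the 12 with the largest negative ones (right), Sprr1a-positive profiles (4 mice, red) above Sprr1a-negative profiles (8 mice, blue). Points are mice and bars are means; profiles of the 2 kinds overlap for Gal and Htr3a.

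Of 16 transcription factors known from regenerating neurons, 14 were called higher and 0 lower, beside 14.4% and 15.3% of all genes, with a median difference of 1.33. This list holds the marker Atf3. It and the lists below were chosen with earlier results of these data known, so their counts are no independent evidence. Sox11, a neurogenic factor that is reactivated after axotomy, averaged 6.59, 8.87, 8.69 and 8.51 in positive profiles, against 2.47 to 4.01 with a median of 3.08 in negative ones. All 4 positive profiles lay above all 8 negative ones, and the difference was 4.97 ± 0.37 (adjusted p = 2.64e-07). Atf3 averaged 9.62, 10.72, 10.89 and 10.72 in positive profiles, against 4.48 to 7.72 with a median of 5.46 in negative ones (4.68 ± 0.52, adjusted p = 8.27e-06). Atf3 was found on both sides of the split: 38 of 38 positive and 68 of 84 negative neurons held 10 reads of it. Tgif1, a repressor in TGF-beta signalling, was higher by 3.42 ± 0.36 (adjusted p = 4.88e-06), and Nfil3, a basic leucine zipper repressor, by 2.40 ± 0.37 (adjusted p = 0.000174). Jun, a partner of ATF3 in AP-1, was higher by 2.13, Smad1, a mediator of BMP signals, by 1.93, Myc by 1.69 and Stat3, the effector of gp130 cytokines, by 0.68. Klf4, a factor that restrains axon growth, differed by -0.16 (adjusted p = 0.623), and Cebpd by 0.62 (adjusted p = 0.339).

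Surface and adhesion genes of injured axons moved the most of the lists by their median (2.90). Of the 21 tested genes 18 were higher and 0 lower, beside 14.4% and 15.3% of all genes. This list holds Ecel1, Sdc1 and Gpr151. Adam8, a metalloprotease of the membrane, was higher by 5.10 ± 0.37 (adjusted p = 2.54e-07) and was at 10 reads in 34 of 38 positive and 25 of 84 negative neurons. Tnfrsf12a, the receptor for TWEAK also called Fn14, was higher by 4.8, the urokinase receptor Plaur by 4.41, the laminin-binding integrin Itga7 by 4.27, the hyaluronan receptor Cd44 by 3.79 and Flrt3, a transmembrane adhesion protein, by 3.53. Chl1, a relative of L1, was higher by 3.26, whereas L1cam itself differed by -0.20 (adjusted p = 0.0924). Cacna2d1, the gabapentin-binding calcium channel subunit that is placed here for its known rise after nerve injury, was higher by 2.90. Cd9 and Anxa3 differed by -0.09 and 0.86 and did not pass.

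Of 24 genes of the growth cone and cytoskeleton, 17 were higher and 2 lower, beside 14.4% and 15.3% of all genes. The median difference was 0.87. Tubb6, a beta-tubulin, averaged 6.60, 8.33, 8.56 and 8.54 in positive profiles, against 0.64 to 3.09 with a median of 1.73 in negative ones, so the profiles lay apart (6.12 ± 0.45, adjusted p = 2.64e-07). Tuba1c, an alpha-tubulin, was present in every Port neuron and was higher by 1.90 ± 0.11 (adjusted p = 4.82e-08), at 9.45 to 10.00 in positive profiles and 7.71 to 8.18 in negative ones. The microtubule destabiliser Stmn4 was higher by 3.62 ± 0.40 and Flnc, an actin cross-linker, by 2.27 ± 0.36. Gap43 and Stmn2, which mark growing axons, were higher by 1.57 and 1.16, and the small heat shock protein gene Hspb1 by 1.85. The 2 called lower were the neurofilament subunits Nefl (-1.05 ± 0.15, adjusted p = 6.86e-05) and Nefm (-0.53 ± 0.14, adjusted p = 0.00906), while Nefh differed by -0.05 (adjusted p = 0.85). Without Retro27, Nefm differed by -0.38 and did not pass (adjusted p = 0.0637).

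Secreted peptides were mixed. Of 14 neuropeptide genes tested 6 were higher and 2 lower, beside 14.4% and 15.3% of all genes. The count of lower genes is thus near the background. Gal, the galanin gene, averaged 8.53, 7.90, 3.41 and 8.56 in positive profiles, against 0 to 3.77 with a median of 1.87 in negative ones (5.12 ± 0.85, adjusted p = 0.000291). Retro27 was the exception, with its positive mean below its own negative mean of 3.77. Ucn, urocortin, averaged 1.78, 3.52, 5.49 and 5.20, against at most 0.24 in negative profiles (3.92 ± 0.50, adjusted p = 2.77e-05), and Nts, neurotensin, was higher by 3.52 ± 0.62 (adjusted p = 0.000505). Adcyap1, which encodes PACAP, was higher by 1.89 ± 0.41 (adjusted p = 0.00262), with Grp and Vgf at 1.79 and 1.49. Nmb, neuromedin B, was lower (-2.51 ± 0.45, adjusted p = 0.000505), as was the granin Scg2 (-1.19 ± 0.33, adjusted p = 0.0121; without Retro53 -0.87, adjusted p = 0.0746). Calca, Vip, Sst and Cartpt, peptides of vagal afferent subtypes, differed by 0.65, 0.71, -0.94 and 0.08 and did not pass.

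Cytokine genes were higher in 6 of 15 cases and lower in 1, beside 14.4% and 15.3% of all genes. Csf1, the growth factor of macrophages and microglia that injured sensory neurons release, averaged 5.72, 6.25, 6.83 and 5.70 in positive profiles, against 2.57 to 3.99 with a median of 3.31 in negative ones. The groups did not overlap (2.90 ± 0.28, adjusted p = 2.31e-06). Osmr, the oncostatin M receptor, was higher by 2.48 ± 0.60, Il6 by 2.13 ± 0.28, the feedback inhibitor Socs3 by 2.05 and the LIF receptor Lifr by 0.66. The profiles of Osmr overlapped, at 1.94 to 5.46 in positive and 0 to 2.67 in negative ones. Il6 was at 10 reads in 18 of 38 positive and 3 of 84 negative neurons. Cntfr, the receptor of ciliary neurotrophic factor, was lower by a small amount (-0.45 ± 0.15, adjusted p = 0.0303), and did not pass without Retro21, Retro22, Retro27 or Retro53 (adjusted p = 0.0552, 0.0751, 0.107 and 0.0932).

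Of 16 trophic factors and receptors 5 were higher and 5 lower, where 14.4% and 15.3% of all genes were. Inhbb, a subunit of activin and inhibin, was read as 0 in all 8 negative profiles and averaged 3.59, 4.41, 5.08 and 4.43 in positive ones, where 32 of 38 neurons held 10 reads. Fgf3, a fibroblast growth factor, averaged 3.56, 6.14, 6.67 and 5.92 in positive profiles and at most 0.02 in negative ones (adjusted p = 2.64e-07), and 32 of 38 positive and 0 of 84 negative neurons held 10 reads. Inhbb and Fgf3 entered the test through the positive neurons alone, so the p-value of Fgf3 is no separate support. Gfra3 and Gfra1, co-receptors for artemin and GDNF, were higher by 2.58 ± 0.32 and 2.28 ± 0.50. Profiles of the 2 kinds overlapped for Gfra1 and Gfra2. Gfra2, the neurturin co-receptor, was lower (-2.73 ± 0.59, adjusted p = 0.00238), and so were the neurotrophin receptors Ngfr (-1.61 ± 0.22, adjusted p = 5.95e-05) and Ntrk2 (-0.93). Fgf13, an intracellular partner of sodium channels, was lower (-1.31 ± 0.13). Bdnf and Ret differed by -0.50 (adjusted p = 0.121) and 1.15 (adjusted p = 0.0597) and did not pass.

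Genes of the integrated stress response and amino acid supply were higher in 14 of 20 cases and lower in 0, with a median of 1.33. Over all genes 14.4% were higher and 15.3% lower. Slc7a3, a cationic amino acid transporter, averaged 2.68, 3.35, 4.74 and 4.42 in positive profiles, against 0 to 0.40 with a median of 0.04 in negative ones (3.70 ± 0.32, adjusted p = 9.17e-07). Phgdh and Psat1, enzymes of serine synthesis, were higher by 3.0 ± 0.35 and 2.33 ± 0.25, the glutathione-degrading enzyme Chac1 by 2.85 ± 0.36, asparagine synthetase Asns by 1.21 and the regulator Atf4 by 0.88. Xbp1, a regulator of the unfolded protein response, was higher by 0.41 ± 0.14 (adjusted p = 0.0396) and did not pass within mice (0.156). Ddit3, a factor of stress-induced cell death, and the endoplasmic reticulum genes Hspa5 and Herpud1 differed by 0.16, -0.16 and 0.02 and did not pass.

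Of 18 genes of axon degeneration and cell death 7 were higher and 4 lower, where 14.4% and 15.3% of all genes were. Cdkn1a, the p53 target that encodes p21, averaged 8.21, 9.52, 9.84 and 9.61 in positive profiles, against 2.95 to 6.39 with a median of 4.91 in negative ones (4.42 ± 0.46, adjusted p = 4.89e-06). Gadd45a, a DNA damage response gene, was higher by 3.64 ± 0.35, the BH3-only gene Hrk by 3.10 ± 0.39 and Trp53 by 0.58. Members that promote or sense axon loss were not all higher. The kinase genes Map3k12 (DLK) and Mapk10 (JNK3) were lower, with differences of -0.64 ± 0.14 (adjusted p = 0.00219) and -0.78 ± 0.13. Map3k12 was not called within mice (adjusted p = 0.0662). Nmnat2, which encodes an axon survival enzyme, was lower too (-0.65 ± 0.14). Bax, Bbc3 and Sarm1 differed by 0.38, 0.03 and 0.41 and did not pass. Immediate early genes had 0 of 16 members higher and 1 lower, beside 14.4% and 15.3% of all genes, with a median of -0.31. Dissociation is known to raise these genes, and its part here was not tested. The gene called was Fos (-1.87 ± 0.49, adjusted p = 0.00924), at 7.49, 5.81, 6.65 and 5.16 in positive profiles and 7.20 to 10.31 in negative ones, where the kinds overlapped, and without Retro22 it did not pass (adjusted p = 0.0608).

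**Figure D3:**
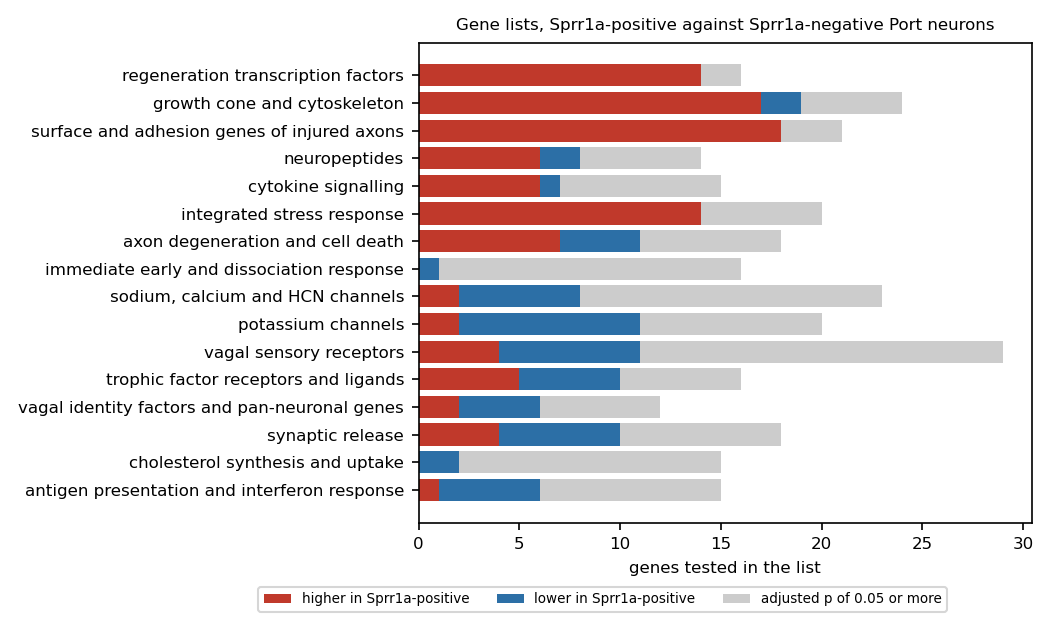
For each of 16 gene lists, the number of tested genes that were higher (red), lower (blue) or not past an adjusted p of 0.05 (grey) in Sprr1a-positive against Sprr1a-negative Port neurons. The surface, transcription factor, cytoskeleton and stress lists are mostly red, the potassium channel list is mostly blue among its called genes, and cholesterol genes are mostly grey.

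Among the 12 genes with the largest negative differences were 3 receptor genes, Adora2a, Htr3a and Htr3b. Adora2a, an adenosine receptor (ENSMUSG00000020178, chromosome 10, 75316877 to 75334784), averaged 3.09, 1.40, 0.97 and 2.76 in positive profiles, against 6.03 to 7.01 with a median of 6.37 in negative ones. All 84 negative neurons and 13 of 38 positive ones held 10 reads (-4.40 ± 0.33, adjusted p = 2.64e-07). Etv1, an ETS factor of sensory neurons, averaged 5.07, 3.74, 4.05 and 6.08, against 8.21 to 9.31 with a median of 8.83 (-4.10 ± 0.32, adjusted p = 4.28e-07). Both genes were lower in every positive profile than in any negative one. The differences were -4.35 ± 0.36 for Trib2, a pseudokinase, -4.35 ± 0.34 for the epoxide hydrolase Ephx1, -4.02 ± 0.36 for neuroglobin (Ngb), -3.90 ± 0.34 for the Ras activator Rasgrp1 and -3.81 ± 0.39 for neuritin (Nrn1). Colq, the collagen tail of acetylcholinesterase, C1qtnf7 and Dcdc2a made up the rest of the 12 with both subunits of the serotonin-gated channel, Htr3a and Htr3b.

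Among sodium, calcium and HCN channels 6 of 23 were lower and 2 higher, with a median of -0.10, beside 15.3% lower and 14.4% higher over all genes, so most members did not pass. Scn10a, the tetrodotoxin-resistant sodium channel of nociceptive and visceral afferents, averaged 6.37, 4.66, 5.47 and 4.34 in positive profiles, against 7.52 to 9.22 with a median of 7.92 in negative ones (-3.01 ± 0.37, adjusted p = 2.15e-05). Scn11a, another sodium channel of small afferents, was lower with a difference of -3.24 ± 0.42, and the beta subunits Scn2b and Scn3b were lower with -1.83 ± 0.27 and -1.78 ± 0.18. Scn9a and Hcn2 were also lower (-0.85 and -1.23), whereas the N-type calcium channel Cacna1b was higher by 0.72 ± 0.20. Of 20 potassium channels 9 were lower and 2 higher, with a median of -1.13, beside a median of -0.03 over all genes. Kcna2, a delayed rectifier of axons, averaged 3.39, 1.79, 2.29 and 1.85 in positive profiles, against 4.66 to 6.14 with a median of 5.11 in negative ones (-2.97 ± 0.31, adjusted p = 5.16e-06). The background potassium channel Kcnk18 (TRESK) was lower with a difference of -2.63 ± 0.51, and the delayed rectifier Kcnb2 with -1.71, while Kcnma1, the BK channel, was higher by 1.28 ± 0.38. Cacna1b and Kcnma1 did not pass without Retro22 (adjusted p = 0.0608 and 0.083), nor Kcnma1 without Retro27 (0.0994).

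Of 29 receptors known from vagal afferents, 7 were lower and 4 higher, and 18 did not pass. Over all genes 15.3% were lower and 14.4% higher, so the count of higher receptors is near the background. Oprm1, the mu opioid receptor, averaged 5.17, 4.04, 4.26 and 4.2 in positive profiles, against 6.23 to 8.72 with a median of 8.05 in negative ones (-3.45 ± 0.34, adjusted p = 3.27e-06). Htr3a, the main subunit of the serotonin-gated channel, averaged 4.86, 3.96, 3.29 and 3.28 in positive profiles, against 4.55 to 12.05 with a median of 8.60 in negative ones (-4.63 ± 0.99, adjusted p = 0.00212). The negative profiles of Htr3a spread widely and that of Retro21 fell among the positive ones. Htr3b was lower with a difference of -4.23 ± 0.97 (adjusted p = 0.00367), the nicotinic subunit Chrnb4 with -3.30 ± 0.62, the cannabinoid receptor Cnr1 with -2.02 and the purinergic subunit P2rx2 with -1.18. P2rx3, its partner subunit, went the other way: it was higher by 1.16 ± 0.13 (adjusted p = 1.15e-05), at 10.15, 10.56, 10.87 and 10.52 in positive profiles and 9.02 to 9.67 in negative ones. The melanocortin receptor Mc4r was higher by 1.59 ± 0.23 at low levels, with 10 reads in 13 of 38 positive and 2 of 84 negative neurons. The gut hormone receptors Cckar, Npy2r and Glp1r and the heat receptor Trpv1 differed by 0.50, 1.21, -0.64 and 0.79 and did not pass. Whether the 2 kinds hold different mixes of vagal subtypes was not tested.

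Vagal identity and pan-neuronal genes gave 4 lower and 2 higher of 12, beside 15.3% and 14.4% of all genes. Isl1, a LIM homeodomain factor of sensory neurons, averaged 6.47, 6.10, 5.96 and 5.84 in positive profiles, against 7.74 to 8.65 with a median of 8.11 in negative ones (-2.03 ± 0.14, adjusted p = 2.05e-07). It remained detected, with 10 reads in 38 of 38 positive neurons. Snap25, a protein of vesicle fusion, was lower with a difference of -1.65 ± 0.13 and the RNA-binding gene Elavl4 with -0.59 ± 0.12, whereas Thy1 and Uchl1 were higher by 1.74 ± 0.40 and 0.40 ± 0.06 and the glutamate transporter Slc17a6 differed by -0.05 (adjusted p = 0.768). Within mice the differences of Thy1 and Uchl1 were 0.99 and 0.42, so that of Thy1 was smaller there. Of 18 genes of synaptic release 6 were lower and 4 higher, where 15.3% and 14.4% of all genes were. Rab3a, a GTPase of synaptic vesicles, was lower with a difference of -1.71 ± 0.11 (adjusted p = 1.42e-07) and its relative Rab3c was higher by 2.63 ± 0.68 (adjusted p = 0.00829). The profiles of Rab3c overlapped. Vamp1, a vesicle SNARE, was lower (-1.51 ± 0.24), and Syt4, a synaptotagmin, was higher by 0.97 ± 0.19. Vamp2, Syt1 and Stx1a differed by -0.14, 0.17 and 0.30 and did not pass.

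Of 15 genes of cholesterol synthesis and uptake 2 were lower and 0 higher: Dhcr7, an enzyme of a final step of synthesis (-0.91 ± 0.20), and the regulator Srebf2 (-0.39 ± 0.14), against 15.3% of all genes called lower. Of 15 genes of antigen presentation and interferon response 5 were lower and 1 higher, beside 15.3% lower and 14.4% higher over all genes. Irf1, an interferon-response factor, was lower with a difference of -2.29 ± 0.51, Ifit1 with -1.94 ± 0.54, and the class I gene H2-K1 with -1.26 ± 0.22, while B2m, the light chain of class I molecules, was higher by 0.51 ± 0.16. B2m did not pass without Retro21, Retro22 or Retro27 (adjusted p = 0.0584, 0.0522 and 0.0907), Ifit1 without Retro53 (0.061), and Srebf2 when any mouse but Retro53 was left out (0.0616 to 0.0956). Th, the catecholamine enzyme that some vagal neurons express, was lower with a difference of -2.77 ± 0.79 (adjusted p = 0.0141), with 10 reads in 10 of 38 positive and 62 of 84 negative neurons.

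The same difference was then taken within the 4 mice that held at least 2 cells of each kind, with mouse as a fixed block, so that differences between mice drop out. It uses a subset of the profiles above and is not a separate data set. Of 12935 genes 1023 were called higher (7.91%) and 1134 lower (8.77%) by limma with Benjamini-Hochberg adjustment. Ecel1 differed by 8.51 (adjusted p = 0.000187), Sdc1 by 8.17, Sox11 by 4.63 and Cdkn1a by 5.05, each in the same direction in 4 of 4 mice. Atf3 differed by 3.95 (adjusted p = 0.00108) and Gal by 5.43 (adjusted p = 0.0129), the last in 3 of 4 mice. Among the genes lower in positive neurons, Adora2a differed by -4.59, Scn10a by -3.48, Kcna2 by -3.27 and Oprm1 by -3.31, in 4 of 4 mice each, and Htr3a by -4.39 (adjusted p = 0.0278) in 3 of 4. By list, the surface genes had 18 of 21 higher within mice, transcription factors 10 of 16, stress response genes 12 of 20 and cytoskeletal genes 16 of 24 with 2 lower. Potassium channels had 6 of 20 lower and 0 higher, and sodium, calcium and HCN channels 5 of 23 lower and 0 higher. Other lists whose counts moved by over 1.5 times were cell death, with 2 of 18 lower, vagal receptors, with 2 of 29 higher, synaptic release, with 2 of 18 higher, neuropeptides and cholesterol genes, with 1 lower each, cytokines, with 0 lower, and immediate early genes, with 3 of 16 lower. Of the genes given above as higher, Cacna1b, Kcnma1, Csf1r, Dcn and Pdgfra did not pass within mice (adjusted p = 0.0649, 0.0753, 0.176, 0.124 and 0.157), nor did Smad1, Trp53 and Lifr (0.0511, 0.090 and 0.221). Of those given as lower, Scg2, Cntfr, Map3k12, Srebf2, Ncmap and Hba-a2 did not pass (0.146, 0.0585, 0.0662, 0.282, 0.233 and 0.0772), nor did P2rx2 and Hcn2 (0.153 and 0.0662).

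**Figure D4:**
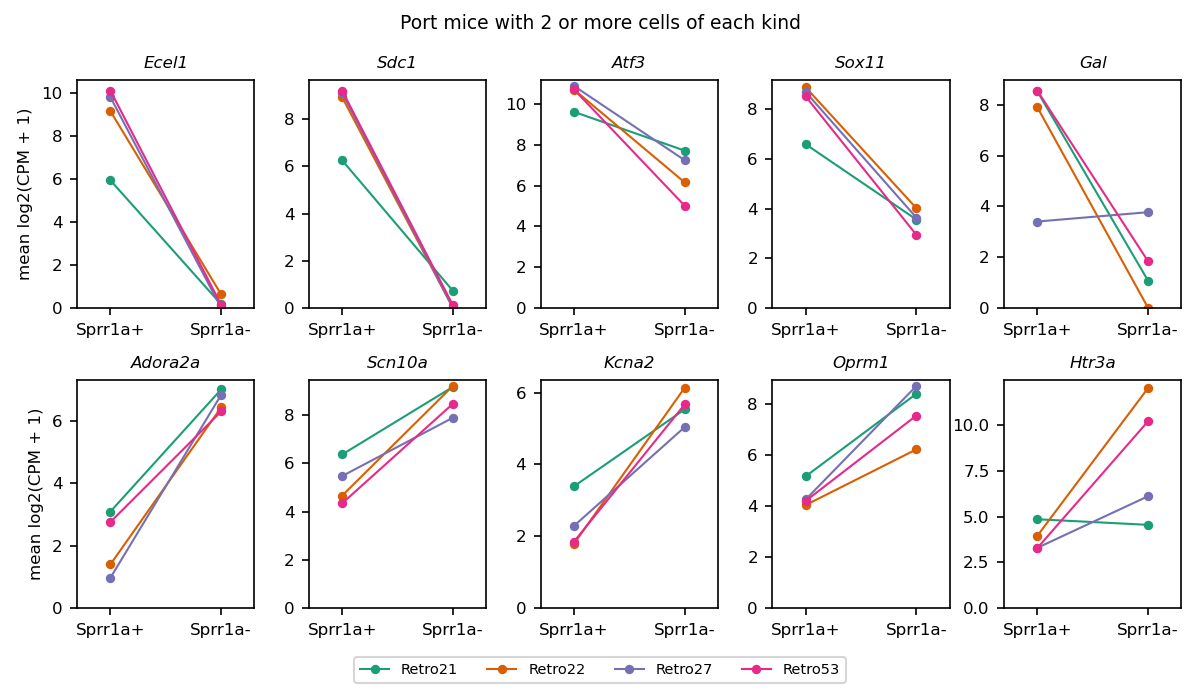
Mean log2(CPM + 1) in Sprr1a-positive (left) and Sprr1a-negative (right) Port neurons of the same mouse, for 10 genes in the 4 mice with at least 2 cells of each kind; each line is a mouse. All 4 lines slope the same way for 8 genes; Retro27 departs for Gal and Retro21 for Htr3a.

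Cells of the other target codes gave a measure in mice that the Port comparison did not use. There, 12 neurons were Sprr1a-positive, 4.38% of the neurons with these codes, and the rest negative. Of the positive neurons 7 lay in Retro44 (GastP), 3 in Retro41 (GastG) and 1 each in Retro11 and Retro12 (IntP). Of the 53 cells coded na 0 were positive, which allows up to 5.66%. Depth in the other codes was 927303 to 1801303 reads in positive neurons and 3934 to 4692462 in negative ones. Negative cells of Retro26 reached 508 CPM of Sprr1a with at most 5 reads, while the lowest positive neuron had 240.73 CPM. The split in reads is thus not a split in CPM there. With 2 positive profiles (Retro41 and Retro44) and 21 negative ones, limma called 1713 genes higher (13.2%) and 1900 lower (14.7%). Of the Port genes called higher, 1145 were also called higher there, which is 61.6% of the Port calls and 66.8% of the calls in the other codes. Of those called lower, 1143 were also called lower there (57.6% and 60.2%). Ecel1 was higher by 6.69, Sdc1 by 7.69, Gpr151 by 7.95, Atf3 by 4.78 and Sox11 by 5.44, and Adora2a, Etv1 and Scn10a were lower (-2.13, -5.24 and -2.07). All 12 of the highest Port genes passed there, with differences from 3.99 to 7.95, and so did all 12 of the lowest, with differences from -5.57 to -2.13. The lists followed with 17 of 21 surface genes, 13 of 16 transcription factors and 15 of 24 cytoskeletal genes higher. Stress response genes had 12 of 20 higher and 2 lower. The interferon and antigen presentation list had 0 of 15 called.

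The difference between the Port contrast and that of the other codes was tested by an interaction term, and 18 genes had a larger value in Port (0.139%) and 7 a smaller one (0.0541%). The filter on low values counted Port cells only, so a gene high in Sprr1a-positive Port neurons alone could enter and one high in positive neurons of the other codes alone could not, which favours larger values in Port. Tgif1 and Flnc passed it through the positive Port neurons, of which 25 and 18 of 38 held 10 reads, against 2 and 3 of 84 negative ones. Tgif1 was among the 18, at 3.42 in Port and 1.10 in the other codes (difference of differences 2.28, limma adjusted p = 0.00239), and so was Flnc, at 2.27 and 0.19 (2.08, adjusted p = 0.00728). Phgdh differed by 3.0 in Port and -0.23 in the other codes, but its interaction did not pass (adjusted p = 0.303). Named here after their values were seen, the serotonin transporter gene Slc6a4 was higher by 3.54 in Port and 5.76 in the other codes (interaction -2.24, adjusted p = 7.33e-08), and Timp1, a metalloprotease inhibitor, by 1.56 and 3.56 (interaction -2.01, adjusted p = 7.64e-06). Cxcl16, a transmembrane chemokine, was higher by 2.55 in Port and differed by -0.59 in the other codes (interaction 3.14, adjusted p = 0.00709). Only 2 positive profiles stand behind the values of the other codes.

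**Figure D5:**
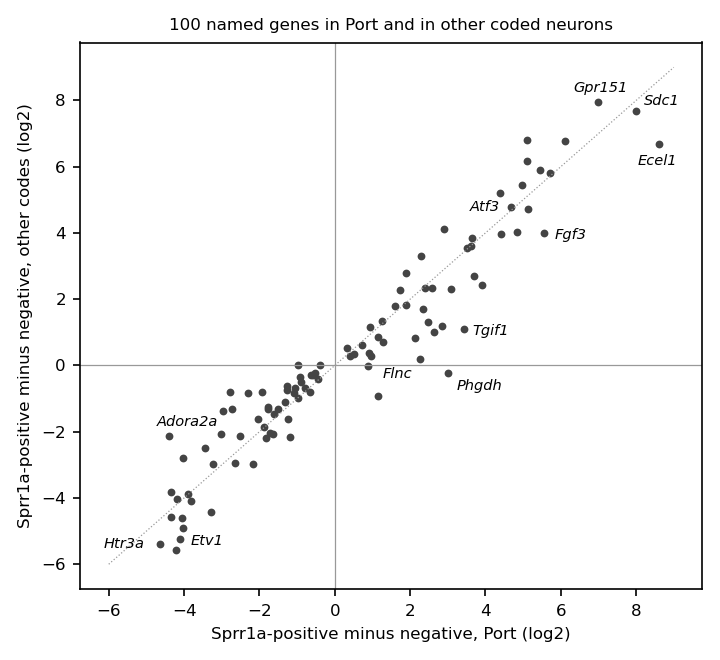
Difference between Sprr1a-positive and Sprr1a-negative neurons (log2 scale) in Port on the x axis and in the other coded targets on the y axis, for the named genes; each point is a gene and the dotted line marks equal values. Most points lie near the line, and Phgdh, Flnc and Tgif1 lie below it.

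The droplet library was used to place the level of Sprr1a in whole ganglia that were not part of the picked set. Of 1082 barcodes with neuronal markers, 16 had a Sprr1a UMI (1.48%, exact Clopper-Pearson 95% interval 0.848 to 2.39, counting error only) at a median depth of 56241 UMIs. Of the 26 barcodes with few neuronal markers, at a median of 14770 UMIs, 0 had one, which allows up to 11.5%. Only 3 neuronal barcodes held more than 1 Sprr1a UMI, with 41, 36 and 24, and all 3 also held Atf3 UMIs (65, 21 and 9). The barcode with 36 Sprr1a UMIs held 28 of Sdc1, 9 of Ecel1 and 6 of Gpr151. That with 41 held 2 of Sdc1 and 0 of Ecel1 and of Gpr151. The barcode with 24 held 1 of Gpr151 and 0 of Ecel1 and of Sdc1. Atf3 had a UMI in 64% of neuronal barcodes and in 5 of the 26 with few neuronal markers (19.2%), at 57.7 and 83.4 CPM over the summed counts, so its share is not read as a share of expressing neurons. Barcodes were not screened for doublets, and the barcode with 41 Sprr1a UMIs was deep, at 98246 UMIs. With a single library there was no test.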

How the data were processed

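Per the labels' protocols, nodose ganglion cells were dissociated with papain, collagenase and dispase, and libraries of the picked cells were made by Smart-seq2 with a Nextera kit. The authors deposited reads of these cells on a log2 scale for 36920 genes. The lowest value, -5.64, is the log2 of 0.02 and was taken as 0 reads; of the other values 94.1% gave whole reads to within 1 part in 1000. Per the file headers each column has a mouse and a target code. Which aligner was used for Smart-seq2 reads was not given in the sources; the submitters' processing notes name mm10 and, for the droplet library, Cell Ranger 2.0.1. The deposited droplet matrix holds counts of UMIs for 1108 barcodes, and its gene and barcode lists hold names only (other, per the file headers). A single column with no sample of its name was not used.

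The members and the gene lists were chosen with earlier results of these data known. Cells of a mouse are not replicates, so log2(CPM + 1) was averaged per mouse and side with at least 2 cells. Genes with 10 reads in at least 5% of Port cells were tested by limma (version 3.58.1 in R 4.3.3), with mouse as a random block and a trend on intensity, adjusted by Benjamini-Hochberg at 0.05. The 2 kinds are paired by mouse, as the header names the same animal for both; the fixed block used the 4 mice with both kinds. P-values measure the spread between these mouse means. The values are log2 reads and not a count table, so edgeR 4.0.16 and DESeq2 1.42.0 on reads summed per mouse and side served only as alternatives. The scripts were tested on simulated data. Of the genes past the threshold and of the same sign within mice, the text names the 12 highest and 12 lowest, up to 4 highest and 4 lowest called members of each list, and the markers of the cells, leaving unnamed models, pseudogenes, mitochondrial and ribosomal protein genes out of the first 24. Other list members were named to show those with small or uncalled differences, after their values were seen. Of 369 list genes 1 was found by an older symbol. Neuronal droplet barcodes had at least 1000 CPM of neuron markers, a limit set after the values were seen, with 894.5 the highest below and 1884.5 the lowest above. Intervals and limits for 0 counts (3 counts) cover counting error only. Gene positions are from GENCODE M21 and promoters from RefSeq. Some genes that this rule would name are not reported here, though they stay in the tests and in the counts of lists. No doublet caller was run on the droplet library.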

Additional observations from a re-analysis of the deposited data

Results flagged for a closer look

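In mouse profiles, which are means of log2(CPM + 1) over the cells of a mouse, 1 mouse stood away from the rest of its kind for 29 of the named genes, by a gap too large a share of the range (Dixon's test at 95%). Chance marks about 1 group in 20. Among the 4 Sprr1a-positive profiles, Retro21 was the lowest for Sdc1 (6.252, nearest 8.928), Tubb6 (6.598, nearest 8.329), Sox11 (6.585, nearest 8.51), Atf3 (9.622, nearest 10.71), Tuba1c (9.447, nearest 9.914), Phgdh (5.495, nearest 7.104) and Hrk (1.552, nearest 3.698). Retro27 was the lowest positive profile for Gal (3.405, nearest 7.902) and Kcnh2 (0.6337, nearest 2.635), and Retro22 the highest for Il6 (3.343, nearest 2.165).

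Among the 8 Sprr1a-negative profiles, Retro22 was the highest for Ecel1 (0.6256, nearest 0.1643), Wfdc3 (1.448, nearest 0.5573) and Dcdc2a (9.196, nearest 6.38), and the lowest for Oprm1 (6.23, nearest 7.558). Its negative profile is the mean of 2 cells, as is that of Retro27. Retro27 was the highest negative profile for Fos (10.31, nearest 8.56) and Csf1r (1.251, nearest 0.4382), and the lowest for Rasgrp1 (4.295, nearest 5.038), Chac1 (2.206, nearest 4.006), Cacna1b (5.142, nearest 5.876) and Fgf13 (9.509, nearest 10.08). Retro21 was the highest for Gpr151 (3.083, nearest 1.509) and Gfra1 (5.903, nearest 4.098), and the lowest for Colq (3.709, nearest 5.915). Retro46 was the lowest for C1qtnf7 (4.525, nearest 6.299) and the highest for Tgif1 (0.4599, nearest 0.1311). Slc7a3 was highest in Retro53 (0.4043, nearest 0.1677), and the others at or near 0 were Flnc in Retro47 (0.5605), Pdgfra in Retro47 (0.02941) and Fgf3 in Retro52 (0.0224), each with all other negative profiles at 0.

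For 2 genes named by rule the difference in Port neurons was larger than that in neurons of the other codes by a test of the difference itself in limma. The gap was 2.282 on the log2 scale for Tgif1 (adjusted p = 0.00239) and 2.075 for Flnc (adjusted p = 0.00728). Both passed the filter on low values through Sprr1a-positive Port neurons, which favours a larger value in Port.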

How the results depend on the processing

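The counts of 1859 genes higher and 1983 lower moved by over 1.5 times in 3 settings. With mouse as a fixed replicate block in the 4 mice that held both kinds, they were 1023 and 1134, of which 1006 and 1072 were among the genes first called. With the split at 1 read of Sprr1a they were 1 and 0, and with mice numbered up to 28 alone, a setting added after the data were seen, 828 and 940. In each the cause was not tested. Leaving out each mouse in turn gave 1470 to 1738 higher and 1600 to 1915 lower. The other settings stayed within 1.5 times: DESeq2 gave 1958 and 1906, edgeR 1756 and 1505, cells thinned to 200000 reads 1413 and 1512, and the replicate block with 1 cell of each kind 1431 and 1502. With mice numbered 46 and above the counts were 1898 and 2062, but Retro53 is then the only positive profile and is assumed to vary like the negative ones. Over the named genes and 24 settings, 2113 of 2389 values kept direction and call, 7 changed sign and the rest kept direction only. At 1 read of Sprr1a these were Nmb (0.12), Dcn (-0.035) and Hba-a2 (0.34). B2m turned to -0.15 with 1 cell per mouse and side and to -0.10 with the replicate block at 1 cell of each kind. Kcnma1 (-0.056) and Dcn (-0.11) turned with mice numbered 46 and above. Depth limits genes near 0 on one side, and positive cells are few in 3 of 7 mice (1 each).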
